A study of Mus musculus with 17 samples.

Results

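Rab GTPases are the largest branch of the Ras superfamily and were examined here as 59 protein-coding mouse genes of 21883. The members were every gene whose symbol is Rab, then a number, then at most 1 letter and 1 further digit. Membership thus rested on names, though earlier results of these data were known when the family was chosen. RNA polymerase II was immunoprecipitated with its bound DNA, and sequenced, from bone marrow-derived macrophages, cells grown from mouse marrow. The treated groups were N4bp1 knockout (KO) and wild type (WT) macrophages at 2, 4 and 6 h of R837, and the others were untreated KO and WT macrophages. R837 is imiquimod, a small molecule that activates TLR7, a Toll-like receptor of endosomes, and N4BP1 is known as a brake on inflammatory cytokine production. Each of the 8 groups held 2 libraries, 16 in all. The sources used here do not give the part of N4bp1 that was removed, the age or sex of the mice, or whether the 2 libraries of a group came from separate cultures or animals. Spread between libraries, on which all p-values rest, may therefore be technical. In bulk samples, more cells with polymerase on a gene and more polymerase per cell cannot be told apart.

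Rab proteins are switches on the cytosolic face of membranes. In the GTP-bound form, loaded by guanine nucleotide exchange factors (GEFs), they recruit effectors such as tethers and motors, and GTPase-activating proteins (GAPs) turn them off. Each Rab marks particular compartments, from the endoplasmic reticulum (ER) and Golgi to early endosomes, recycling endosomes, phagosomes and lysosomes, and in macrophages they order the steps by which engulfed material and internalised receptors reach lysosomes.

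The deposited data were lists of polymerase summits, the single bases where the authors' peak caller placed the strongest signal of a peak, each with a score. For a Rab gene the value was the rank, in a list shortened to 8394 summits (the length of the shortest list), of the best summit within the annotated gene and 1 kb on either side. Rank 1 is the highest score. For tests the rank was turned into a rank score, log2 of (8394 + 1) divided by the rank, which is 0 where the gene had no summit in the shortened list and 13.04 for the top summit. The rank score is a place in a list, not a quantity of bound polymerase. Changes below are differences of mean rank scores, in log2 units, with the standard error (SE) of the fit. A change was called where limma's adjusted p was under 0.05.

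The lists held 8394 to 29760 summits in treated libraries and 20607 to 24720 in untreated ones, and read depth is unknown because no read counts were in them. The shortened lists touched 2693 to 5882 genes in treated libraries and 6428 to 6689 in untreated ones, so fewer genes had any summit after R837. The Rab genes among them numbered 14 to 30 in treated and 29 to 34 in untreated libraries. By the codes in the peak names, untreated libraries share a series with the 2 h ones, while the later times have a series each, so a batch between series cannot be told apart from the effect of 4 h or 6 h. Replicate 2 of KO at 6 h stood apart, with a highest score of 563.5 against at most 320.4 elsewhere, while other lists shared up to 81.8% of their score values with another list. N4bp1 itself ranked 541 to 1713 in treated KO libraries and 957 to 3475 in treated WT libraries, with no summit in the untreated ones, which does not check the genotype labels. All 10 macrophage markers examined had a summit in some shortened list, with a summed rank score of up to 55.3 in treated and up to 36.0 in untreated libraries. None of 6 B cell, 5 erythroid, 5 mast cell and 6 fibroblast markers had one there, while 2 of the B cell and 1 of the erythroid markers had one in a deposited list. Neutrophil markers had summits for 3 of 8 genes, in treated libraries only (summed rank score 0 to 6.15), with none for S100a9, Ltf, Elane, Mpo or Ly6g, and dendritic cell markers for 2 of 5, or 4 in the deposited lists (0.37 to 5.15 in treated and 0.37 to 1.61 in untreated libraries). The 2 dendritic cell markers were Flt3 and Xcr1. The best summit of Fyco1, a Rab effector gene described below, also lay in the region of Xcr1 in 15 of 16 libraries. The dendritic cell sum thus cannot be assigned to Xcr1 alone. T and NK cell markers had summits for 2 of 7, summing to at most 0.25 in treated and 0.57 in untreated libraries. Their part in the results was not tested.

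The bases before the start are shown for 5 Rab genes, chosen by the polymerase changes described below. Rab20, Rab32 and Rab12 were the members that rose, Rab31 one that, like Rab20, gained summits inside the gene, and Rab22a one that fell. Each line gives the 250 bases upstream of a transcription start listed by RefSeq, 5′ to 3′ on the gene's strand, on GRCm38.p6. For Rab12 this start is base 66519670 and for Rab22a base 173659845, both inside the gene spans given below. The windows of these 2 genes thus overlap the genes, and the PU.1 core of Rab12 lies inside its gene. Capitals mark matches, on either strand, to an E-box (CACGTG) or a PU.1 core (GAGGAA), PU.1 being the lineage factor of macrophages.
Rab20, chr8:11478641-11478890, minus strand: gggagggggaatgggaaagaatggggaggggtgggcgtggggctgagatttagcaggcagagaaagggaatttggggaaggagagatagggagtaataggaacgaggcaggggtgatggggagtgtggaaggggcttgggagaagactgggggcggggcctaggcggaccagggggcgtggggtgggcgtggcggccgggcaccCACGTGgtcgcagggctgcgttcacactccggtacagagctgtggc
Rab32, chr10:10558208-10558457, minus strand: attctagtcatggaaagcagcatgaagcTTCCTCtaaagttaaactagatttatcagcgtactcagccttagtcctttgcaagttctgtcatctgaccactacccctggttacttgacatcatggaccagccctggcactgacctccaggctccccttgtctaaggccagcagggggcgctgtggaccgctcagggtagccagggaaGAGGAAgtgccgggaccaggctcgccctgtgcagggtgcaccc
Rab12, chr17:66519671-66519920, minus strand: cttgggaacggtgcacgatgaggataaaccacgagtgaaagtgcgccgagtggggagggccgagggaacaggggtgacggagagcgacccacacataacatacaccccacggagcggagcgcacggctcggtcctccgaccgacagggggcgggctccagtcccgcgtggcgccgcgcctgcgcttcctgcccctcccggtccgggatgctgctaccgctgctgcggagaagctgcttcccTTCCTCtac
Rab31, chr17:65772753-65773002, minus strand: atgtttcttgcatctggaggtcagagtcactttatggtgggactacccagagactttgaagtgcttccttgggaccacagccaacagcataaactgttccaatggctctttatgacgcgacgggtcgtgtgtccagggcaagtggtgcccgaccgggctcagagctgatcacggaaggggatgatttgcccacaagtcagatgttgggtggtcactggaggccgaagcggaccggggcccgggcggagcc
Rab22a, chr2:173659595-173659844, plus strand: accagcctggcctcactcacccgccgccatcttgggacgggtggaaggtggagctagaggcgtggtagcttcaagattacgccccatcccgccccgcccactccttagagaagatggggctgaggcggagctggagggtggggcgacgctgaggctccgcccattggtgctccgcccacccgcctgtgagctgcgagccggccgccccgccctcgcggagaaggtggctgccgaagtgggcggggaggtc

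The E-box in the Rab20 window begins 46 bases before the start. The PU.1 cores begin 222 and 43 bases before the start of Rab32 and 9 bases before that of Rab12. The E-box was in 6.63% of all 21262 windows of this length, and in 5 of the 60 windows of Rab genes, which cover the 48 members with a start in the table. The PU.1 core was in 22.25% of all windows and in 8 of the 60. A consensus site for NF-kB, the factor activated downstream of TLR7, was in 7.91% of all windows and 3 of the 60, and none of the 3 belonged to the 5 genes shown. An AP-1 site (TGANTCA) was in 6.13% of all windows and 2 of the 60. These matches describe letters and were not tied to binding of any factor. The windows differed in base composition, with 65.2% G and C for Rab20, 55.6% for Rab32, 67.6% for Rab12, 57.6% for Rab31 and 70.0% for Rab22a.

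Of the 59 Rab genes, 35 were present in 2 or more of the 16 shortened lists and were tested with the 8473 genes that met this condition. A further 22 had none in any shortened list, and 12 of those had none in any deposited list either. These 12 were Rab15, Rab17, Rab25, Rab27b, Rab36, Rab38, Rab39b, Rab3b, Rab40b, Rab42, Rab44 and Rab9b, several of them known from epithelial, neuronal or pigment cells. The other 10 had summits only below the shortened lists (Rab19, Rab23, Rab28, Rab33a, Rab34, Rab39, Rab3c, Rab4a, Rab6b and Rab9). Rab27a and Rab3a lay just outside the condition, with 1 summit each, at rank 8019 in replicate 2 and rank 5522 in replicate 1 of WT untreated. Rab3d lay just inside it, at rank 5629 in replicate 1 of KO untreated and 7389 in replicate 2 of WT untreated. Rab10, Rab13, Rab24, Rab26, Rab32, Rab5c and Rab8b had a summit in all 16 lists.

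**Figure D1:**
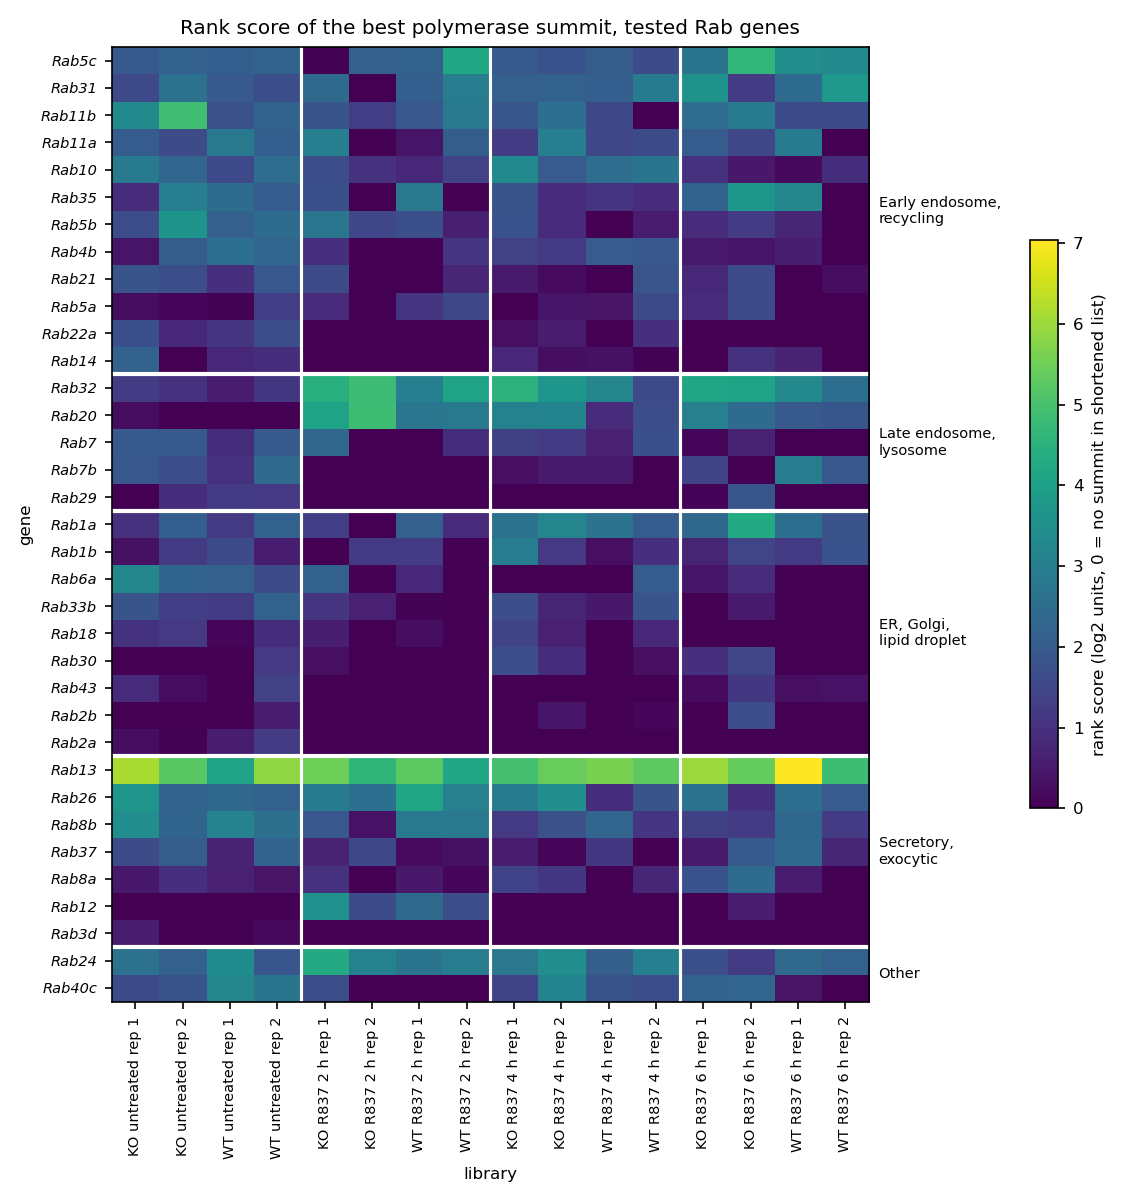
Rank score of the best summit of each of the 35 tested Rab genes (rows, grouped by compartment) in each of the 16 libraries (columns, KO left of WT at each time). Dark cells have no summit in the shortened list. Rab13, with the highest mean rank score (5.33), is bright in every library, Rab20 and Rab32 brighten after R837, and Rab12 has its bright cells at 2 h.

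Polymerase ranked higher on Rab20 and Rab32 after R837, and lower on 10 other members, while 23 changed by amounts that did not pass the test. The members called higher were 5.71% of those tested, beside 5.77% of all genes. The members called lower were 28.6%, beside 29.4% of all genes. The Rab family thus had about the share of calls of all genes tested in both directions. The median change of the members was -0.52 and that of all genes tested was -0.33. In every one of the 12 treated libraries Rab20 and Rab32 stood above every untreated library, as did 2.05% of all genes, and Rab2a stood below every untreated library, as did 8.25%. By compartment, the calls were 2 higher and 1 lower of 5 tested late endosome, lysosome and phagosome Rabs, 0 higher and 4 lower of 12 early endosome and recycling Rabs, 0 and 3 of 9 ER, Golgi and lipid droplet Rabs, 0 and 1 of 7 secretory and exocytic Rabs, and 0 and 1 of 2 others.

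**Figure D2:**
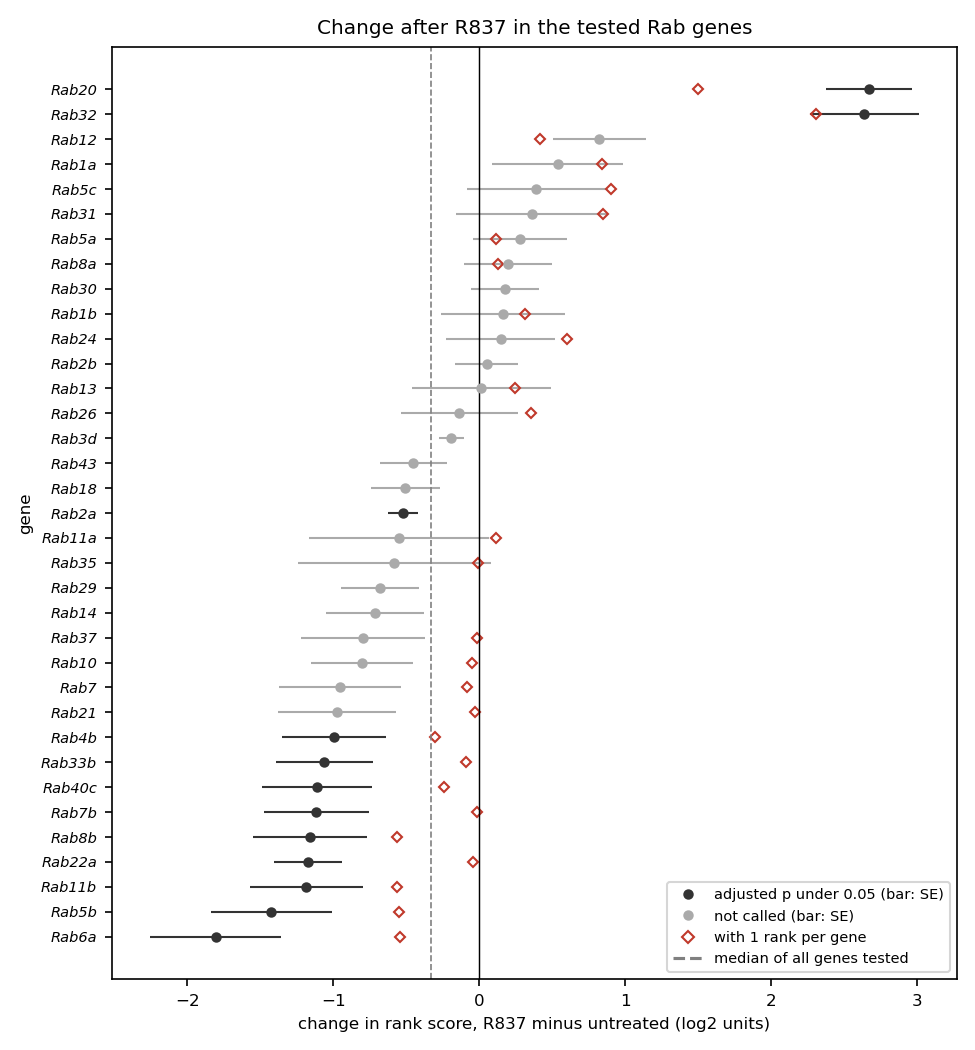
Change in rank score, R837 minus untreated (x axis, log2 units), for each of the 35 tested Rab genes (y axis), as the fitted difference of 12 treated and 4 untreated libraries with its SE. Diamonds give the change with 1 rank per gene, and the dashed line is the median of all genes tested (-0.33). Rab20 and Rab32 lie to the right in both measures, while the diamonds of the members called lower lie between -0.56 and -0.02.

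Rab20 is recruited to phagosomes and macropinosomes and takes part in their maturation towards lysosomes. The gene (gene ID 19332) spans chromosome 8, 11453390 to 11478640 on GRCm38, on the minus strand. Its best summit ranked 7136 in replicate 1 of KO untreated and lay below the shortened lists in the other untreated libraries, at deposited ranks of 9161 in KO replicate 2 and 9311 and 12303 in WT. At 2 h it ranked 500 and 291 in KO and 1227 and 1178 in WT. At 4 h the ranks were 978 and 927 in KO and 4605 and 2627 in WT, and at 6 h they were 1009 and 1532 in KO and 2140 and 2282 in WT. All 12 treated libraries stood higher than all untreated ones, and the 2 h libraries of each genotype were the highest of that genotype. The mean rank score was 2.73 in treated and 0.06 in untreated libraries, a rise of 2.67 ± 0.29 (SE, 12 against 4 libraries, limma adjusted p = 2.49e-05). With 1 untreated and 12 treated lists, Rab20 met the condition for testing only through treated libraries. Its p-values for the rise, here and at single times, are therefore no independent support. By time, with 4 treated against 4 untreated libraries, Rab20 rose by 3.57 ± 0.36 at 2 h, 2.15 ± 0.36 at 4 h and 2.28 ± 0.36 at 6 h, and limma's adjusted p-values were 1.89e-05, 8.85e-04 and 5.28e-04.

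Rab32 acts on lysosome-related organelles and on vacuoles that hold bacteria in macrophages. The gene (gene ID 67844) spans chromosome 10, 10545039 to 10558207, minus strand. Its best summit ranked 3529 and 4178 in KO untreated and 5795 and 3775 in WT untreated libraries. At 2 h it ranked 390 and 296 in KO and 1015 and 502 in WT, at 4 h 365 and 650 in KO and 907 and 2809 in WT, and at 6 h 476 and 492 in KO and 852 and 1434 in WT. The treated and untreated ranges did not overlap. The mean rank score was 3.62 in treated and 0.99 in untreated libraries, a rise of 2.63 ± 0.37 (SE, 12 against 4 libraries, limma adjusted p = 1.65e-04). It rose by 3.11 ± 0.46 at 2 h, 2.26 ± 0.46 at 4 h and 2.53 ± 0.46 at 6 h, with limma adjusted p of 3.35e-04, 0.00291 and 0.00125. The summit of Rab32 lay 79 to 477 bases from its start in all 16 libraries.

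Rab12, which directs transferrin receptor from recycling endosomes to lysosomes, was called at 2 h. The gene (gene ID 19328) spans chromosome 17, 66494512 to 66519750, minus strand. At 2 h its best summit ranked 715 and 2693 in KO and 1548 and 2640 in WT, and no untreated library and no 4 h library held it in the shortened list. In the deposited lists it was at rank 16442 in replicate 2 of KO untreated, at 9091 and 11959 in KO and 10745 in WT replicate 2 at 4 h, and at 5745 in replicate 2 of KO at 6 h. All 4 libraries at 2 h thus stood above all 4 untreated ones, and the share of all genes that did so was not counted. The rise at 2 h was 2.33 ± 0.39 (SE, 4 against 4 libraries, limma adjusted p = 8.27e-04), and all 5 summits lay within 1 kb of the start. Rab12 met the condition of 2 lists through treated libraries alone, with 5 treated and 0 untreated, so it had to differ in this direction and the p-value is no independent support for the rise. Over all treated times the change was 0.82 ± 0.32 (limma adjusted p = 0.0608). The difference between 2 h and later times was not tested.

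**Figure D3:**
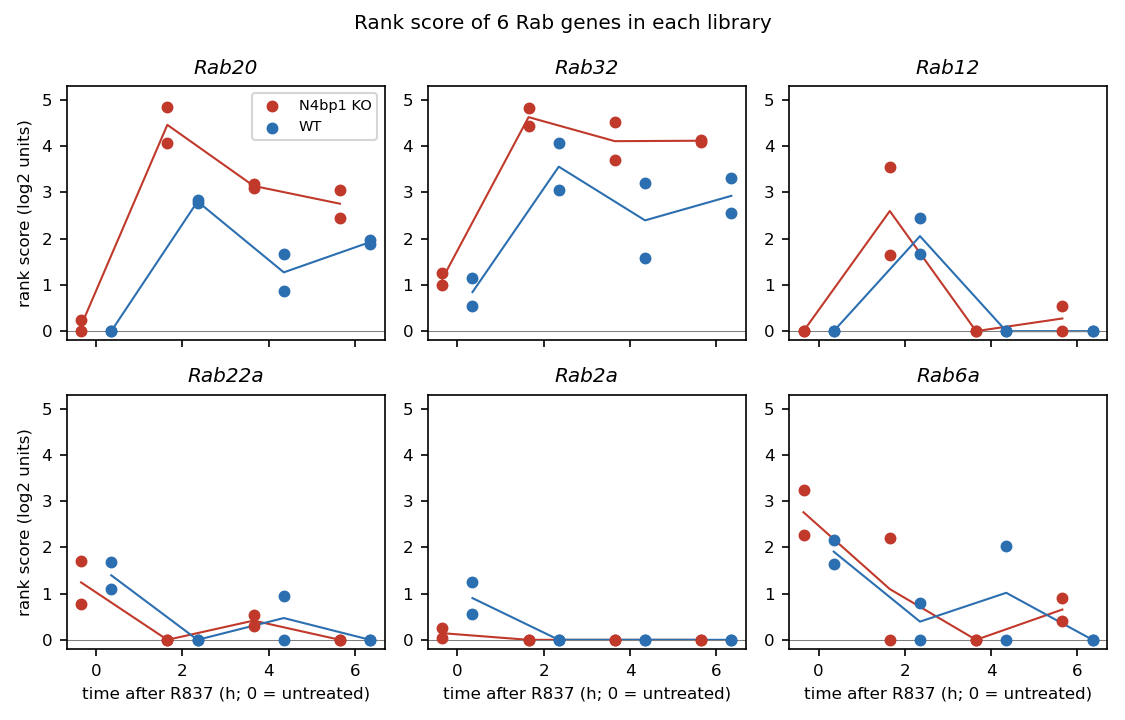
Rank score (y axis, log2 units) of 6 Rab genes in each library against time after R837 (x axis, h; untreated at 0), with KO points and means to the left of WT ones. The points of Rab20 and Rab32 stand above the untreated ones at every time, those of Rab12 at 2 h, and Rab22a, Rab2a and Rab6a lie at or near 0 in most treated libraries.

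The 10 falls covered Rabs of several compartments. Rab2a, which acts between the ER and the Golgi (gene ID 59021; chromosome 4, 8535469 to 8607702), was missing from all 12 treated lists, shortened and deposited, and ranked 7029 and 8210 in KO untreated and 5681 and 3552 in WT untreated libraries. The fall was 0.52 ± 0.10 on the log2 scale (SE, 12 against 4 libraries, limma adjusted p = 0.00193), and all its treated rank scores were 0. Rab2a met the condition of 2 lists through the 4 untreated libraries alone, so it had to differ in this direction and the p-value is no independent support for the fall. Rab22a, an early endosome Rab (gene ID 19334; chromosome 2, 173659836 to 173702186, plus strand), was in 3 of 12 treated lists, all at 4 h, at ranks 6839 and 5789 in KO and 4367 in WT replicate 2. It ranked 2567 and 4908 in KO untreated and 3911 and 2605 in WT untreated libraries. It fell by 1.17 ± 0.23 (limma adjusted p = 0.00183), with 1 treated rank inside the untreated range. Its summits lay 1 to 102 bases from the start.

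Rab6a, a Golgi Rab (gene ID 19346; chromosome 7, 100607575 to 100641268, plus strand), fell by 1.81 ± 0.45 (SE, 12 against 4 libraries, limma adjusted p = 0.00725), the largest of the falls called. It was in 5 of 12 treated lists, at ranks 1833 (KO) and 4864 (WT) at 2 h, 2050 (WT) at 4 h, and 6314 and 4501 (both KO) at 6 h. It ranked 886 and 1737 in KO untreated and 1868 and 2682 in WT untreated libraries. The groups overlapped, and all 9 of its best summits also lay in the region of Mrpl48, which overlaps the start of Rab6a.

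The other 7 falls were smaller than that of Rab6a, and in each the treated ranks overlapped the untreated ones. Rab5b, an early endosome Rab, was in 10 of 12 treated lists at ranks 1236 to 5799, against 2658 and 673 in KO untreated and 1877 and 1530 in WT untreated libraries, and changed by -1.43 ± 0.41 (limma adjusted p = 0.0175). Rab11b, of the recycling endosome, was in 11 of 12 treated lists at 1127 to 3480, against 835 and 286 in KO untreated and 2490 and 1788 in WT untreated libraries (change -1.19 ± 0.39, limma adjusted p = 0.0307). Rab4b, of fast endosomal recycling, was in 9 of 12 at 2067 to 6409, against 6384 and 2006 in KO untreated and 1415 and 1709 in WT untreated libraries (-0.996 ± 0.36, limma adjusted p = 0.0451). These 3 act on early and recycling endosomes.

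Rab7b, a late endosome Rab known to damp signalling of endosomal Toll-like receptors, was in 6 of 12 treated lists, none of them at 2 h, at ranks 1069 to 6811. It ranked 2246 and 2611 in KO untreated and 4214 and 1562 in WT untreated libraries, and fell by 1.11 ± 0.36 (limma adjusted p = 0.0286). At 2 h it fell by 1.75 ± 0.44 (limma adjusted p = 0.00999), while at 6 h the change was -0.17 ± 0.44 (limma adjusted p = 0.810). Rab33b, of the Golgi and of autophagosome formation, was in 8 of 12 treated lists at 2352 to 8214, against 2378 and 3398 in KO untreated and 3527 and 1851 in WT untreated libraries (change -1.06 ± 0.33, limma adjusted p = 0.0259). Rab40c, which carries a SOCS box and joins a ubiquitin ligase, was in 8 of 12 at 924 to 6482, against 2793 and 2375 in KO untreated and 921 and 1263 in WT untreated libraries (-1.11 ± 0.38, limma adjusted p = 0.0355). Rab8b, of exocytic transport, was in all 12 at 1190 to 6555, against 775 and 1741 in KO untreated and 959 and 1385 in WT untreated libraries (-1.16 ± 0.39, limma adjusted p = 0.0359).

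The falls were not called when the ranking and the list length were changed together. Where genes were ranked once each by their best summit and the lists cut to the 2693 best genes, the median change of all genes was 0.04 instead of -0.33, 27 Rab genes were tested with a median of -0.01, and the members called were 2 higher and 0 lower, beside 8% of all 5225 genes tested higher and 12% lower. With the lists cut to the 5000 best summits and the ranking kept, 6 members were lower. The parts of ranking and list length were not tested apart. With 1 rank per gene Rab20 rose by 1.499 (limma adjusted p = 0.00106) and Rab32 by 2.30 (limma adjusted p = 1.93e-04), Rab22a changed by -0.04 (adjusted p = 0.415) and Rab6a by -0.54 (adjusted p = 0.112), and Rab2a could not be tested. On that scale untreated KO and WT differed by 0 for Rab20 and for Rab32, as for genes in no untreated list. Genes tested through treated lists alone had to differ in this direction, so these 2 p-values are no independent support. The number lower was 3 without replicate 2 of WT untreated, and 6 without replicate 1 of KO untreated or without replicate 1 of WT at 2 h. Rab20 and Rab32 remained called without each of the 16 libraries in turn, as did Rab22a, and Rab2a, which had to differ once it was tested. Rab20 was tested through treated libraries, so its kept call is no independent support either. The other calls were kept in 15 of the 16 such fits for Rab6a (lost without replicate 1 of KO untreated, limma adjusted p = 0.0524), 14 for Rab5b and for Rab33b, 13 for Rab7b, 11 for Rab11b, 7 for Rab8b and for Rab40c, and 4 for Rab4b.

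At 2 h of R837 the tested members numbered 3 higher (8.57%, against 4.84% of all genes) and 7 lower (24.1% of all genes). At 4 h they numbered 2 higher (5.71%, against 5.71%) and 6 lower (17.1%, against 19.8%), and at 6 h 2 higher (5.71%, against 6.33%) and 9 lower (25.7%, against 23.2%). Rab20 and Rab32 were the members called higher at every time. Rab22a and Rab6a were called lower at every time, as was Rab2a, which had to differ once it was tested. Members called lower at 6 h but not over all times were Rab7, the central late endosome Rab (change -1.501 ± 0.51, limma adjusted p = 0.0408), Rab10, of recycling and exocytic transport (-1.66 ± 0.43, limma adjusted p = 0.0109), and Rab18, which marks lipid droplets (-0.82 ± 0.29, limma adjusted p = 0.0490). With 1 rank per gene, 5 members were higher at 6 h (9.61% of all genes) and 0 lower (11.7% of all genes). Besides Rab20 and Rab32 these were Rab5c (1.70, limma adjusted p = 0.0174), Rab1a, of transport between the ER and the Golgi (1.28, limma adjusted p = 0.0317), and Rab8a, of exocytic transport (0.35, limma adjusted p = 0.0121). On that scale Rab8a changed by 0 in WT over all treated times, and KO stood above WT by 0.69 at 6 h and by 0 untreated. The rise of Rab8a thus came from KO libraries, through which it was tested, so its p-value is no independent support. Within genotypes, KO macrophages had 2 members higher (against 3.86% of all genes) and 3 lower (against 14.3%), and WT macrophages 2 higher (against 3.76%) and 5 lower (against 18.5%). In KO, Rab20 rose by 3.33 ± 0.41 and Rab32 by 3.16 ± 0.53 (limma adjusted p = 1.49e-04 and 0.00122). In WT, Rab20 rose by 2.00 ± 0.41 and Rab32 by 2.11 ± 0.53 (limma adjusted p = 0.00407 and 0.0119).

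KO and WT macrophages differed in 1 Rab gene after R837. Rab20 ranked higher in KO, with a mean rank score of 3.45 against 2.00 in WT, a difference of 1.45 ± 0.29 (SE, 6 against 6 libraries, limma adjusted p = 0.0420). Both KO libraries stood above both WT libraries at each of the 3 times, but the share of all genes that did so was not counted. The 1 call (2.86% of the tested members) stands beside 0.448% of all genes higher in KO, and 0 members lower beside 0.295%. The median difference was 0.27 in the members and 0.11 in all genes. The shortened lists touched 3276 to 5882 genes in treated KO libraries and 2693 to 4676 in treated WT libraries. At 2 h, replicate 2 of KO, with 3276, lay below both WT libraries (3645 and 3449). The part of this coverage in the differences between KO and WT, here and below, was not tested. Without each library in turn the difference was 1.32 to 1.59 and the adjusted p 0.0231 to 0.109, so that the call held in 7 of 16 such fits, among them the one without replicate 2 of KO at 6 h (1.55, adjusted p = 0.0231). It was lost without any 1 of 9 treated libraries, namely either replicate of WT or KO at 2 h, replicate 1 of WT or either replicate of KO at 4 h, or either replicate of WT at 6 h. With the replicate number as a block, limma's adjusted p was 0.0655, and with 1 rank per gene the difference was 1.07 (adjusted p = 0.0731).

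The next lowest p-values belonged to Rab30 and Rab32. Rab30, a Golgi Rab, was in 6 of 12 treated lists, at ranks 6821 in KO at 2 h, 2618 and 4475 in KO and 6924 in WT at 4 h, and 4369 and 3038 in KO at 6 h, and in 1 untreated list, at 3770 in WT replicate 2. Its difference of KO from WT after R837 was 0.84 ± 0.23 (limma adjusted p = 0.145). For Rab32 the difference was 1.32 ± 0.37 (limma adjusted p = 0.148). Both KO libraries stood above both WT libraries at each time as for Rab20, again without a count over all genes. Neither passed the test.

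In limma, 0 members were called in either direction in untreated KO against WT (0.649% and 0.72% of all genes higher and lower), at 2 h (0.0118% and 0.059%), at 4 h (0.165% and 0.236%) or at 6 h (1.13% and 0.189%). At an unadjusted p under 0.05 there were 2 members in untreated libraries, 3 at 2 h, 5 at 4 h and 6 at 6 h. The lowest adjusted p among untreated libraries was that of Rab2a, with a mean rank score of 0.14 in KO and 0.90 in WT, a difference of -0.76 ± 0.18 (limma adjusted p = 0.0625). The test of the R837 response in KO against that in WT called 0 members in either direction (0.555% and 0.378% of all genes), with 4 at an unadjusted p under 0.05. For Rab20 the response differed by 1.33 ± 0.58 (limma adjusted p = 0.422).

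The number of summits per gene gave a second view, fitted in limma as log2 of the number plus 1. It rose in 2 members (7.16% of all genes) and fell in 6 (21.6%). Rab20 had 1 and 0 summits in KO untreated and 0 and 0 in WT untreated libraries. After R837 it had 5 and 8 in KO and 5 and 4 in WT at 2 h, 5 and 5 in KO and 2 and 2 in WT at 4 h, and 4 and 5 in KO and 4 and 2 in WT at 6 h. The change was 2.07 ± 0.20 (limma adjusted p = 4.69e-05), with no overlap between treated and untreated libraries, which was not counted over all genes for summit number. As for the rank score, Rab20 was tested through treated libraries, so the p-value is no independent support. Of its 51 treated summits, 7 lay within 1 kb of the start and the others inside the gene or at its other end.

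Rab31 moves receptors between the trans-Golgi network and endosomes. The gene (gene ID 106572) spans 121.0 kb of chromosome 17, 65651726 to 65772752, minus strand. It had 1 and 2 summits in KO untreated and 1 and 1 in WT untreated libraries, 3 and 0 in KO and 1 and 3 in WT at 2 h, 5 and 5 in KO and 6 and 5 in WT at 4 h, and 10 and 7 in KO and 14 and 12 in WT at 6 h. All libraries at 4 h and 6 h exceeded the untreated ones, and those at 6 h exceeded those at 4 h, without a count of this over all genes. The number rose by 1.32 ± 0.33 (limma adjusted p = 0.0147), and the call was lost without replicate 1 or 2 of WT untreated or replicate 1 of KO untreated (adjusted p up to 0.0714). Of 71 treated summits 9 lay within 1 kb of its start, against 4 of 5 untreated ones. Its best rank, by contrast, did not pass, with a change of 0.36 ± 0.52 (limma adjusted p = 0.614).

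Rab8b (gene ID 235442; chromosome 9, 66843609 to 66919705, minus strand) went the other way. It had 7 and 7 summits in KO untreated and 7 and 9 in WT untreated libraries, 2 and 1 in KO and 3 and 3 in WT at 2 h, 4 and 3 in KO and 3 and 2 in WT at 4 h, and 2 and 1 in KO and 1 and 3 in WT at 6 h. The number fell by 1.41 ± 0.20 (limma adjusted p = 7.93e-04). Of its summits, 17 of 28 in treated libraries lay within 1 kb of the start, against 4 of 30 in untreated ones. The other falls in summit number were Rab7b (-1.21), Rab2a (-1.15), Rab22a (-0.75), Rab40c (-0.63) and Rab29, a lysosome-associated Rab (-0.58). When each library was left out in turn, the call was kept in 14 of 16 fits for Rab7b, 4 of 16 for Rab40c and all 16 for the other falls in summit number. Rab2a, with no summit in any treated library, had to fall once it was tested, so its kept call is no independent support.

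**Figure D4:**
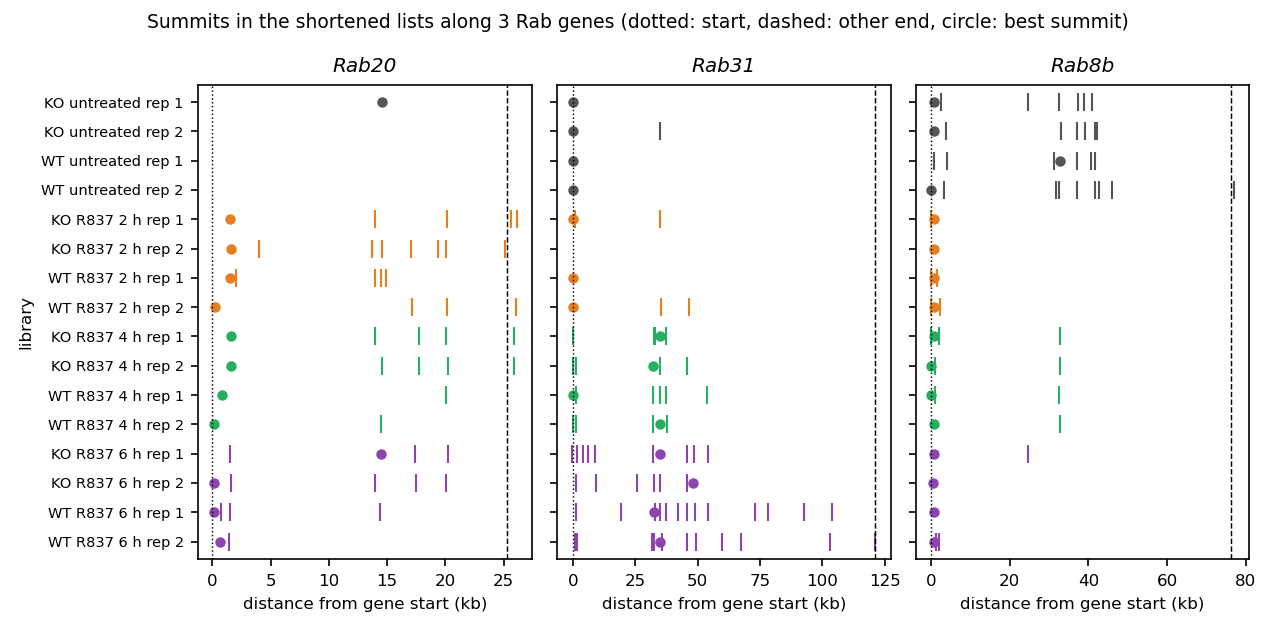
Position of each summit in the shortened lists (x axis, distance from the gene start in kb, along the direction of transcription) in each library (y axis) for Rab20, Rab31 and Rab8b. Circles mark the best summit of a library, ticks the others, the dotted line the start and the dashed line the other end of the gene. Summits fill the body of Rab20 after R837 and of Rab31 at 4 and 6 h, and those inside Rab8b are mostly in untreated libraries.

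Over the 31 members with a start in the table and a summit, the best summit lay within 1 kb of the start in 316 of 346 cases (91.3%). Counting all their summits, 260 of 439 in treated libraries (59.2%) and 115 of 154 in untreated ones (74.7%) lay there. These counts pool summits of the same libraries and are given as a description.

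Several members shared their best summit with a neighbour, so the value cannot be assigned to the Rab gene alone. Of the 35 tested members, 7 had the best summit in another gene's region in every library with a summit, 3 in some and 25 in none. The 5 members with the highest mean rank score over the 16 libraries were Rab13, Rab32, Rab24, Rab26 and Rab5c. Rab13 (chromosome 3, 90213715 to 90226387), known from tight junctions, ranked 120 and 222 in KO untreated and 510 and 143 in WT untreated libraries, 186 and 347 in KO and 219 and 473 in WT at 2 h, 272 and 198 in KO and 171 and 216 in WT at 4 h, and 132 and 202 in KO and 64 and 292 in WT at 6 h. The groups overlapped throughout. Its best summit also lay in the region of the ribosomal protein gene Rps27 in 16 of 16 libraries, and that summit was a median of 116.5 bases from the start of Rab13 and 49.5 from that of Rps27. Its change after R837 was 0.01 ± 0.48 (limma adjusted p = 0.987).

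Rab24, linked to autophagy, ranked 1370 and 1891 in KO untreated and 782 and 2258 in WT untreated libraries, 424 and 993 in KO and 1283 and 1085 in WT at 2 h, 1210 and 762 in KO and 1909 and 1023 in WT at 4 h, and 2540 and 3600 in KO and 1565 and 1849 in WT at 6 h. It shared its summit with Prelid1 in 16 of 16 libraries (a median of 109.5 bases from its own start and 34.5 from that of Prelid1). Rab26, of secretory granules, ranked 662 and 1762 in KO untreated and 1615 and 1797 in WT untreated libraries, 1133 and 1413 in KO and 478 and 996 in WT at 2 h, 1115 and 773 in KO and 4440 and 2346 in WT at 4 h, and 1363 and 4301 in KO and 1432 and 2080 in WT at 6 h. It shared its summit with Traf7 in 16 of 16, a median of 347 bases from the start of Traf7. Rab5c, an early endosome Rab, ranked 2161 and 1819 in KO untreated and 1964 and 1781 in WT untreated libraries, 8089 and 1896 in KO and 1857 and 463 in WT at 2 h, 2157 and 2447 in KO and 1993 and 2751 in WT at 4 h, and 1276 and 332 in KO and 761 and 815 in WT at 6 h. All 4 of its 6 h ranks were higher in the list than the untreated ones, which was not counted over all genes. The change at 6 h, 1.43 ± 0.58, did not pass (limma adjusted p = 0.0839), although it did with 1 rank per gene, as given above. Rab5c shared its summit with Hspb9 in 2 of 16. Over all treated times the changes of Rab24, Rab26 and Rab5c were 0.15 ± 0.37, -0.14 ± 0.40 and 0.39 ± 0.48, with limma adjusted p of 0.779, 0.813 and 0.549. Rab1b shared with Klc2 in 12 of 14 and Cnih2 in 2, Rab2b with Tox4 in 4 of 4, Rab37 with Slc9a3r1 in 14 of 15, Rab4b with Mia in 10 of 13 and Rab5b with Pmel in 14 of 14. Rab20, Rab32, Rab12, Rab31, Rab8b, Rab22a and Rab2a shared none. With shared summits left out, Rab6a and Rab5b could not be tested and Rab4b changed by 0.12 instead of -0.996.

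The partners of the family were called in like proportion on the main scale. Of 119 genes for Rab prenylation and retrieval, GEFs, GAPs and effectors, 78 were tested, 5 rose (6.41%) and 23 fell (29.5%) after R837, beside 5.77% and 29.4% of all genes, with a median change of -0.35 beside -0.33. The shares are near those of all genes. The prenylation and retrieval genes gave 0 higher and 2 lower of 6, the GEFs 1 and 6 of 22, the GAPs 1 and 7 of 22, and the effectors and Rab kinases 3 and 8 of 28. The largest rises were those of Fyco1, a Rab7 effector that carries late endosomes and autophagosomes along microtubules (2.65 ± 0.40, limma adjusted p = 2.46e-04, mean rank score 3.68 in treated and 1.03 in untreated libraries), of Rilpl2, an effector of phosphorylated Rabs (2.53 ± 0.34, limma adjusted p = 1.08e-04), and of Tbc1d13, a GAP (1.96 ± 0.45, limma adjusted p = 0.00495). Fyco1 shared its best summit with Xcr1 in 15 of 16 libraries and Rilpl2 with Kmt5a in 6 of 15. The largest falls were those of Plekhm1, a Rab7 effector in fusion with lysosomes (-3.54 ± 0.30, limma adjusted p = 3.26e-06), of Rab3il1, a GEF (-2.88 ± 0.27, limma adjusted p = 7.32e-06), and of Dennd6a, a GEF (-2.75 ± 0.32, limma adjusted p = 4.14e-05). Plekhm1 was in none of the 4 shortened lists at 2 h, against ranks of 199 and 409 in KO untreated and 680 and 778 in WT untreated libraries, and it shared its summit with Arhgap27 in 8 of 10. At 4 h it ranked 8082 in replicate 2 of KO and 6963 in replicate 1 of WT. By 6 h the ranks were 6144 and 2857 in KO and 1265 and 1079 in WT. None of the 78 was called between KO and WT over all treated times, with 9 at an unadjusted p under 0.05. By time, 1 was higher in untreated KO (1.28%, beside 0.649% of all genes) and 1 lower in KO at 2 h (1.28%, beside 0.059%). None was called at 4 h or 6 h. In the test of the R837 response in KO against that in WT, 1 was lower (1.28%, beside 0.378%).

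The genes whose rank scores over the 16 libraries were most like those of Rab20, of 8473 compared, were Lrrc63 (Pearson r 0.906), Dram1 (0.904) and Clec4e (0.903). Dram1 encodes a lysosomal membrane protein and Clec4e the C-type lectin receptor Mincle. Lrrc63 shared its best summit with Lcp1 in 13 libraries. These correlations rest on libraries that share lists, times and genotypes and are given as a description.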

How the data were processed

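The authors used GSNAP, MACS2 and the GRCm38 build, per the submitters' processing notes. Versions, call threshold and control are not given in the sources used here. Every file as deposited listed the summits of 1 library, with the authors' score of each summit, which in the format of that caller is −log10 of a p-value (it may be a q-value, as the files do not say). It served only for ranking within lists. An input sample was not analysed here.

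Lists were shortened to the 8394 best summits, and summits were matched to gene regions of RefSeq (GRCm38.p6). The rank scores entered limma 3.58.1 (R 4.3.3) with 8 group means, all 16 libraries in 1 fit, a variance trend and Benjamini-Hochberg adjustment over 8473 genes with a summit in at least 2 lists, at a threshold of 0.05. The fit was also run on simulated data in which every library covered the same number of genes. The real lists differ in the number of genes touched, so that run says nothing on the effect of this difference. Replicates were taken from the sample titles.

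The members, gene lists and tests were chosen with earlier results of these data known. Named with their values were members called after R837 or between KO and WT (otherwise the lowest p-values), the 5 highest by mean rank score, the 3 largest rises and falls among partners, and the 3 genes most like the member with the largest change. Rab31, Rab8b and Rab29 in summit number, and Rab7, Rab10, Rab18, Rab12, Rab1a, Rab8a and Rab5c at single times, were named after their values were seen.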

Additional observations from a re-analysis of the deposited data

How the results depend on the processing

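Read depth is unknown, no counting error can be given, and groups of 2 libraries limit every test. The rises of Rab20 and Rab32, over all treated times and at 2 h, and of Rab12 at 2 h passed in every alternative run. Rab12 had to differ once it was tested, and with 1 rank per gene the same limit holds for Rab20 and Rab32, as given above. On the main scale, too, Rab20 was tested only through treated libraries. The falls in rank score and the KO difference did not pass in every run. The exception was the fall of Rab2a, which had to differ once it was tested and passed in the 7 alternatives that tested it. In summit number the falls of Rab8b and Rab29 passed in every alternative run. Over all treated times 10 members were lower, against 6 with the 5000 best summits and 0 with 1 rank per gene. At 2 h the 7 lower became 4, 0 and, with only the compared groups fitted, 4, and at 4 h the 6 lower became 3, 0 and 2. At 6 h the 9 lower became 0 with 1 rank per gene and 5 without shared summits, and the 2 higher became 5 and 4. Within KO the 3 lower became 5 with the annotated gene only, 1 with 1 rank per gene and 1 with the compared groups. Within WT the 5 lower became 2 with the 5000 best summits and 0 with 1 rank per gene, where the 2 higher became 1. The 1 member higher in KO after R837 became 0 with a summit required in 4 lists, with 1 rank per gene, with the replicate block and with the compared groups. The 0 members higher in KO became 1 in untreated libraries with the annotated gene only, 1 at 4 h without a variance trend, and 1 at 6 h with the 5000 best summits or 1 rank per gene, which also gave 1 lower at 6 h. In summit number the 2 higher became 4 with 3 kb flanks and 4 with the lists as deposited, where the 6 lower became 14. Rab4b turned to 0.38 with 3 kb flanks and 0.12 without shared summits, and Rab30 between KO and WT to -0.0185 with the annotated gene only. The cause of these shifts was not tested, apart from the number of genes or samples each alternative changes by construction.

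With each library left out in turn, the counts ranged as follows. After R837 2 to 3 were higher and 3 to 12 lower, at 2 h 3 and 4 to 7, at 4 h 2 to 3 and 1 to 7, and at 6 h 2 to 4 and 5 to 10. In KO 2 to 3 were higher and 0 to 4 lower, and in WT 1 to 2 and 2 to 6. In KO against WT, 0 to 2 were higher after R837, 0 to 1 higher and 0 to 1 lower untreated, and 0 to 3 higher at 6 h, and the response test gave 0 to 2 higher and 0 to 1 lower. In summit number 1 to 3 were higher and 4 to 9 lower. Replicate 2 of WT untreated moved most counts, leaving 4 lower at 2 h, 1 at 4 h and 2 in WT. At 2 h, 4 were lower without replicate 1 of WT or replicate 2 of KO at 2 h. At 4 h, 3 were lower without replicate 1 of KO untreated and 2 without replicate 1 of WT or either of KO at 4 h. At 6 h, 5 were lower without replicate 2 of WT or replicate 1 of KO at 6 h, and without the second of these 4 were higher, and 3 higher in KO than WT. In KO, 1 was lower without replicate 1 of KO untreated and 0 without replicate 1 of KO at 4 h. In WT, 1 was higher without replicate 1 of WT untreated. Without replicate 2 of KO at 6 h, the library that stood apart, Rab20 rose by 2.72, Rab32 by 2.64 and 10 members were lower. Replicate numbers were not used to pair the samples in the main fit, as their deviations correlated by -0.11 to 0.18 over 28 pairs of groups. These correlations cannot show whether the samples were paired, which the labels do not say. With the replicate block, 2 members were higher and 9 lower after R837, and the Rab20 difference between KO and WT was the 1 count of calls that moved by over 1.5 times.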
